A study of Homo sapiens with 12 samples.

Results

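The heat shock proteins and their partner chaperones were described through a set of 43 genes chosen by name out of 24408 features in the count tables. Of these, 13 were classed as inducible by heat or misfolded protein and 30 as constitutive, a division taken from general knowledge of the genes. The division was not tested here, and genes classed as constitutive may also respond to heat. All 43 were found, HSPB11 under its current RefSeq symbol IFT25, and 42 had enough reads to be tested. HSPA6 did not. The set is wider than the cytosol: HSPA9, HSPD1, HSPE1 and DNAJA3 encode mitochondrial proteins, HSPA13 a protein of the endoplasmic reticulum, HSPB11 a subunit of intraflagellar transport, and HSF1 and HSF2 transcription factors.

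The cells were HEK293T, a line derived from human embryonic kidney and made to express the large T antigen of SV40, a viral protein whose J domain engages HSC70. All cells received, by lipid-mediated transfection, plasmids for guide RNAs to 4 sites at IL1RN and a plasmid for 1 of 4 proteins: dCas9, which binds DNA without cutting it; dCas9-VP64, its fusion to a viral activation domain; dCas9-p300 core, its fusion to the catalytic core of the acetyltransferase p300; and dCas9-p300 D1399Y, in which the D1399Y change removes that activity. Each group held 3 libraries, and the study asked which genes other than the target differed in expression. Transfection was transient, so a library can also hold RNA of cells that took up no plasmid. The sources used here do not give the time after transfection, and untransfected cells were not analysed here.

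When proteins misfold, the transcription factor HSF1 is released from chaperones, forms trimers and binds heat shock elements, which are inverted repeats of the letters GAA upstream of its target genes. The targets include HSPA1A, HSPA1B and DNAJB1, which are low in unstressed cells and climb steeply after heat, while HSPA8 and HSP90AB1 serve folding in all cells at all times. J proteins deliver substrates to HSP70, BAG and HSP110 proteins release its nucleotide, HSP90 finishes signalling proteins, and the TRiC ring folds actin and tubulin.

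The shallowest library, dCas9 replicate 3, held 2442960 counts and the deepest, core replicate 2, held 5154627. Levels are given in CPM, the counts of a gene scaled to a common library size through TMM factors. IL1RN, the gene the guides target, stood at 4.24 to 9.48 CPM with dCas9, 19.3 to 31.3 with dCas9-VP64, 73.2 to 89.3 with the core and 6.49 to 9.28 with D1399Y, so the targeted gene separated the core and dCas9-VP64 libraries from the other two groups. The neuronal and renal markers known from HEK293 cells were present (NEFL 71.9 to 152 CPM, VIM 167 to 239, PAX2 1.62 to 7.90). Of markers of other cell types, PTPRC reached at most 5 counts in a library. KRT5 and KRT14 had 0, which allows at most 1.14 CPM in the shallowest library. Not all such markers were this low. The fibroblast markers COL1A1 and COL3A1 stood at 12.5 to 21.3 and 4.55 to 11.9 CPM, and the blood marker LYZ at 1.86 to 5.69. PAX2 overlapped COL3A1 and LYZ in level. A pair of libraries stood apart. Of all 14621 genes tested, 32.9% had their highest level of the 12 libraries in dCas9 replicate 3 and 21% in D1399Y replicate 2. Reads came from whole cultures, so fewer cells with a transcript and less transcript per cell cannot be told apart.

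The promoters of the inducible genes were searched for the core of a heat shock element, because HSF1 acts through it. RefSeq promoter sequences (assembly GRCh38.p14) were found for 40 of the 43 genes, and HSF1, FKBP4 and HSPA14 had no entry. The 250 bases before the RefSeq start were searched for GAANNTTC and TTCNNGAA, where N is any base. Each motif reads the same on both strands, and matches may overlap. The pair HSPA1A and HSPA1B is shown because both were among the most variable genes of the set, DNAJB1 as an inducible J protein, and HSPA8 as their constitutive partner. Matches are in capitals, and all sequences run 5′ to 3′ on the gene's own strand. HSPA1A spans chr6:31815293-31815542 (plus strand), HSPA1B chr6:31827488-31827737 (plus strand), DNAJB1 chr19:14518398-14518647 (minus strand) and HSPA8 chr11:123062137-123062386 (minus strand).
HSPA1A: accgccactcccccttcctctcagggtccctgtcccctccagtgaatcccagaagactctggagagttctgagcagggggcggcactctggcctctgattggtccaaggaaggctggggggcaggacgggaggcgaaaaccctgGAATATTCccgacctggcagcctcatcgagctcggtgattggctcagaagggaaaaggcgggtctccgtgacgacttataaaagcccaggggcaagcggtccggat
HSPA1B: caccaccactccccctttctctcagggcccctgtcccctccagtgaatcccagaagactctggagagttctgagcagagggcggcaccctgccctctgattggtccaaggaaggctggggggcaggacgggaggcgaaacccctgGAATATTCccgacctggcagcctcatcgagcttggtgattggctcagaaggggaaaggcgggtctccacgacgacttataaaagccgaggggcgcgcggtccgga
DNAJB1: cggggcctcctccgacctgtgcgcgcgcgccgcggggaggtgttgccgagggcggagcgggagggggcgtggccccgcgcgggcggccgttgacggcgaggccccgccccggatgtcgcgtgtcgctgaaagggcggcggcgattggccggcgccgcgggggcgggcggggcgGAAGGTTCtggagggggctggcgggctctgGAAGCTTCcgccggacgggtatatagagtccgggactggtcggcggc
HSPA8: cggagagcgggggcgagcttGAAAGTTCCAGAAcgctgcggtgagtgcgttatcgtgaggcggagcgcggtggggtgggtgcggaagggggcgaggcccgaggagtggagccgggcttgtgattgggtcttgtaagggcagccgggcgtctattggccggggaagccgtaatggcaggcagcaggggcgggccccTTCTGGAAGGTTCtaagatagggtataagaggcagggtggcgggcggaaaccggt

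HSPA1A and HSPA1B carried the same match, which began 106 and 105 bases before the start. Their windows aligned with 235 identical bases, 14 mismatches and 2 gaps (94.4% identity over aligned bases). DNAJB1 held 2 matches, which began 77 and 47 bases before its start. HSPA8, although constitutive, held 4 matches in 2 clusters, overlapping within each, the first from 230 and the second from 55 bases before its start. The RefSeq starts lay 3 to 199 bases from the GENCODE starts of the counted transcripts of these 4 genes.

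Over the whole set, 11 of 13 inducible promoters (84.6%) and 5 of 27 constitutive promoters (18.5%) held a match, beside 4067 of 35116 promoters in the RefSeq table (11.6%). At least 2 matches were present in 4 inducible promoters (30.8%) and 3 constitutive ones (11.1%), beside 1.32% of all promoters. The constitutive genes with a match were HSPA8, HSPD1, DNAJB6, BAG2 and TCP1. The inducible genes whose window held none were BAG3, an HSP70 release factor linked to autophagy, and HSPH1, the inducible HSP110. The RefSeq start lay 10 bases from the counted transcript's GENCODE start for BAG3 but 461 bases from it for HSPH1, so the HSPH1 window does not border the counted start. The distance also exceeded 250 bases for CHORDC1 (315) and HSPB8 (289), which held a match. It did so for the constitutive genes HSPA2 (273), HSPA9 (323), HSPE1 (385) and CCT5 (616), which held none. The shares above include these windows. HSPA6 held 3 matches and CHORDC1 held 6. A match describes letters in a window and is not evidence of binding.

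HSPA6, the HSP70 gene that is almost silent without stress, was barely detected. Its counts in replicates 1, 2 and 3 were 3, 1 and 2 in the dCas9 group, 2, 0 and 0 in the dCas9-VP64 group, 4, 1 and 2 in the core group and 1, 0 and 2 in the D1399Y group. The 3 libraries with 0 counts allow at most 0.763, 0.764 and 0.871 CPM (3 counts, counting error only). No group stood out in HSPA6 at this depth.

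HSPA1A and HSPA1B encode the same inducible HSP70 protein. HSPA1A stood at 134, 40.3 and 70.5 CPM in dCas9 replicates 1, 2 and 3, at 57.6, 48.1 and 48.9 with dCas9-VP64, at 83.5, 47.5 and 53.5 with the core, and at 66.3, 35.7 and 54.1 with D1399Y. HSPA1B, in the same order, stood at 230, 83.3 and 146 CPM, at 113, 90.6 and 104, at 149, 90.1 and 105, and at 132, 79.3 and 108. Both genes were highest in dCas9 replicate 1, lowest in D1399Y replicate 2, and the 4 groups overlapped. The transcripts are near-identical and the sources used here do not give the rule for reads they share, so the split between these copies is uncertain. The same caution holds for HSP90AA1, HSPA8, HSPD1 and other chaperones with processed pseudogenes.

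DNAJB1, the J protein that partners inducible HSP70, stood at 130, 87.8 and 106 CPM with dCas9, at 94.1, 86.2 and 85.6 with dCas9-VP64, at 107, 85.1 and 80.1 with the core, and at 101, 80.5 and 90.96 with D1399Y. HSPH1 stood at 266, 188 and 183 CPM with dCas9, at 216, 198 and 187 with dCas9-VP64, at 210, 182 and 185 with the core, and at 212, 210 and 177 with D1399Y. BAG3 stood at 61.6, 42.0 and 61.4 CPM with dCas9, at 43.1, 37.4 and 49.1 with dCas9-VP64, at 50.6, 41.2 and 50.8 with the core, and at 50.3, 38.9 and 39.8 with D1399Y. All 3 genes were highest in dCas9 replicate 1, BAG3 by only a small margin over dCas9 replicate 3, and dCas9 replicate 2 lay among the libraries of the other groups. The range across libraries was narrower than for HSPA1A, at 0.70, 0.59 and 0.71 on the log2 scale for DNAJB1, HSPH1 and BAG3 beside 1.89 for HSPA1A.

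**Figure D1:**
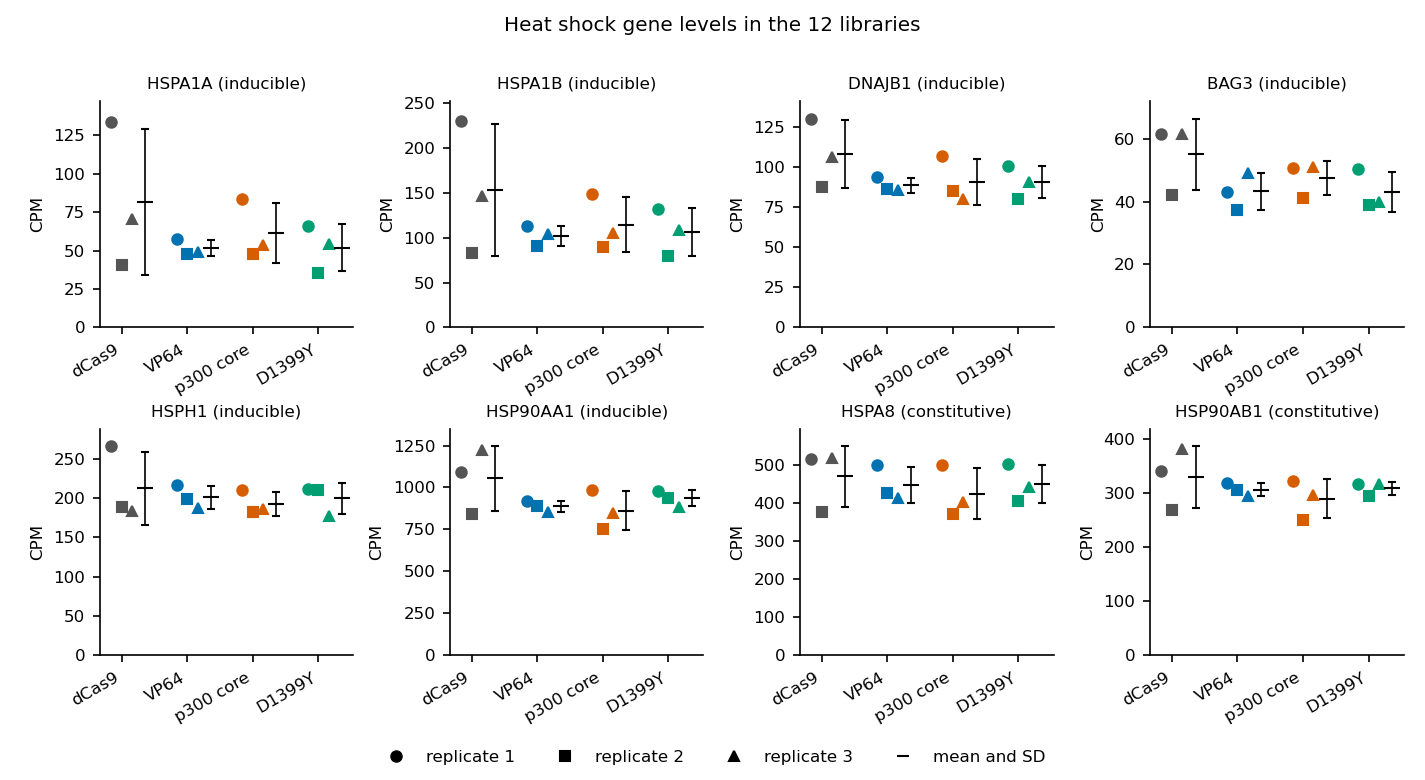
Level in CPM (vertical axes, starting at 0) of 6 inducible and 2 constitutive genes in each library of the 4 groups (horizontal axes), with replicate number as the symbol and the group mean ± SD beside the points. HSPA1A in dCas9 replicate 1, at 134 CPM, lies above the 11 other libraries, which span 35.7 to 83.5 CPM.

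HSP90AA1, the stress-responsive HSP90, was the most abundant inducible gene. It stood at 1094, 844 and 1223 CPM with dCas9, at 922, 887 and 856 with dCas9-VP64, at 983, 753 and 850 with the core, and at 980, 940 and 885 with D1399Y. DNAJA1, a J protein of the cytosol, stood at 151, 135 and 150 CPM with dCas9, at 135, 150 and 128 with dCas9-VP64, at 148, 121 and 132 with the core, and at 150, 137 and 130 with D1399Y. CHORDC1, an HSP90 partner, stood at 154, 125 and 93.7 CPM with dCas9, at 124, 161 and 107 with dCas9-VP64, at 117, 114 and 115 with the core, and at 142, 129 and 105 with D1399Y. The groups overlapped in each of these genes, and the library that was highest differed: dCas9 replicate 3 for HSP90AA1, dCas9 replicate 1 for DNAJA1 and dCas9-VP64 replicate 2 for CHORDC1.

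HSPB1, the small heat shock protein HSP27, stood at 19.2, 20.8 and 37.9 CPM with dCas9, at 17.2, 19.6 and 19.4 with dCas9-VP64, at 20.5, 20.2 and 20.5 with the core, and at 20.02, 13.7 and 20.4 with D1399Y. HSPB8, the small heat shock protein that works with BAG3, stood at 7.62, 7.64 and 7.96 CPM with dCas9, at 9.36, 9.41 and 9.93 with dCas9-VP64, at 10.8, 6.16 and 10.3 with the core, and at 8.93, 13.1 and 7.16 with D1399Y. HSPB1 was nearly level apart from dCas9 replicate 3 and D1399Y replicate 2, while the dCas9 and dCas9-VP64 libraries of HSPB8 did not overlap. DNAJB4, a J protein, stood at 37.0, 43.4 and 22.8 CPM with dCas9, at 38.2, 37.4 and 38.7 with dCas9-VP64, at 35.3, 39.6 and 37.9 with the core, and at 45.2, 51.4 and 37.4 with D1399Y. HSPA4L, an HSP110 protein, stood at 88.9, 69.0 and 26.6 CPM with dCas9, at 84.3, 65.9 and 63.2 with dCas9-VP64, at 71.6, 67.2 and 74.0 with the core, and at 79.5, 77.0 and 66.0 with D1399Y. Both were lowest in dCas9 replicate 3, where HSPA4L lay 1.32 below its 12-library mean on the log2 scale.

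Among the constitutive genes, HSPA8, the cognate HSP70, stood at 516, 377 and 518 CPM with dCas9, at 500.6, 426 and 413 with dCas9-VP64, at 500, 372 and 402 with the core, and at 503, 406 and 442 with D1399Y. HSP90AB1, the constitutive HSP90, stood at 339, 268 and 382 CPM with dCas9, at 318, 305 and 294 with dCas9-VP64, at 322, 251 and 295 with the core, and at 316, 295 and 315 with D1399Y. TCP1, the founding TRiC subunit, stood at 422, 295 and 373 CPM with dCas9, at 358, 343 and 308 with dCas9-VP64, at 347, 293 and 312 with the core, and at 367, 331 and 320 with D1399Y. All 3 were high in dCas9 replicates 1 and 3, and all 3 were lowest in core replicate 2, with dCas9 replicate 2 close to it. No pair of groups separated in any of them.

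The factors of the response were detected in all libraries. HSF1 stood at 47.4, 43.7 and 75.9 CPM with dCas9, at 46.1, 50.4 and 50.2 with dCas9-VP64, at 51.4, 46.4 and 49.8 with the core, and at 43.6, 34.9 and 46.1 with D1399Y. HSF2, which can form mixed trimers with HSF1, stood at 189, 188 and 136 CPM with dCas9, at 176, 200 and 170 with dCas9-VP64, at 167, 162 and 169 with the core, and at 183, 198 and 167 with D1399Y. In dCas9 replicate 3 HSF1 was highest and HSF2 lowest of the 12 libraries.

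The other 25 constitutive genes are given by role, as their lowest and highest CPM over the libraries. Of the HSP70 proteins, HSPA9 (mitochondrial) ran from 254 to 320, HSPA13 from 87.6 to 231, HSPA14 (ribosome-bound) from 72.03 to 92.3, HSPA12A from 34.5 to 59.5 and HSPA2 (testis-enriched) from 7.12 to 14.5, and the HSP110 protein HSPA4 ran from 178 to 232. Of the J proteins, DNAJB6 ran from 148 to 201, DNAJA2 from 116 to 145, DNAJA3 from 98.8 to 133 and DNAJB2 from 19.5 to 60.7. HSPA14 and DNAJA2 were among the steadiest genes of the set and DNAJB2 among the least steady, with its highest level in dCas9 replicate 3 and its lowest in D1399Y replicate 2. The release factors BAG5, BAG1 and BAG2 ran from 93.3 to 172, from 30.02 to 56.5 and from 26.5 to 39.7. The HSP90 partners FKBP4, STIP1, which joins HSP70 to HSP90, and AHSA1, which speeds the HSP90 ATPase, ran from 134 to 203, from 90.6 to 132 and from 39.2 to 74.3. The TRiC subunit genes CCT7, CCT3, CCT4, CCT2, CCT5 and CCT8 ran from 465 to 769, 460 to 708, 335 to 470, 278 to 409, 210 to 318 and 189 to 283. Each of these TRiC genes peaked in dCas9 replicate 3. The mitochondrial chaperonin genes HSPD1 and HSPE1 ran from 404 to 565 and from 24.7 to 45.9, and HSPB11 ran from 12.5 to 20.9, all 3 again highest in dCas9 replicate 3.

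Levels per length were compared as CPM per kilobase of the most counted transcript of each gene, leaving out its other transcripts. Counts were divided among the transcripts of a gene, 1 for HSP90AB1 and CCT8, 2 for HSP90AA1 and HSPA8, 4 for CCT3 and 6 for CCT7. The order therefore depends on this division and is not one of summed gene levels. HSP90AA1 ranked first, at 139 ± 18.7 (SD over the 12 libraries), followed by HSP90AB1 at 120 ± 12.96, CCT8 at 112 ± 11.97 and HSPA8 at 109 ± 14.2. These 4 neighbours differed by less than or about 1 SD. That SD is the spread of each gene over the libraries and does not show whether the order held within each library. HSPA1B, at 47.3 ± 16.6, and HSPA1A, at 24.8 ± 10.6, lay below HSPA8 in level, and HSPB8 (4.19 ± 0.87) and HSPA2 (3.65 ± 0.75) closed the order. The lengths are those of GENCODE transcripts.

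Inducible and constitutive genes were then set against each other within each library, as the median log2 ratio of each class to the mean of the 12 libraries. With dCas9 the inducible median was 0.37, -0.09 and 0.15 and the constitutive median 0.11, -0.08 and 0.28 in replicates 1, 2 and 3. With dCas9-VP64 the inducible medians were 0.00, -0.04 and -0.11 and the constitutive medians 0.02, 0.05 and -0.03. The core gave inducible medians of 0.09, -0.16 and -0.08 and constitutive medians of 0.03, -0.15 and -0.08, and D1399Y gave 0.11, 0.00 and -0.08 against 0.02, -0.03 and -0.01. The inducible median exceeded the constitutive one by 0.26 in dCas9 replicate 1, more than in any other library, while in dCas9 replicate 3 it lay 0.14 lower. With a narrower list of 7 inducible genes the lowest differences were instead -0.36 in D1399Y replicate 2 and -0.24 in dCas9-VP64 replicate 2, and dCas9 replicate 3 stood at 0.04.

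**Figure D2:**
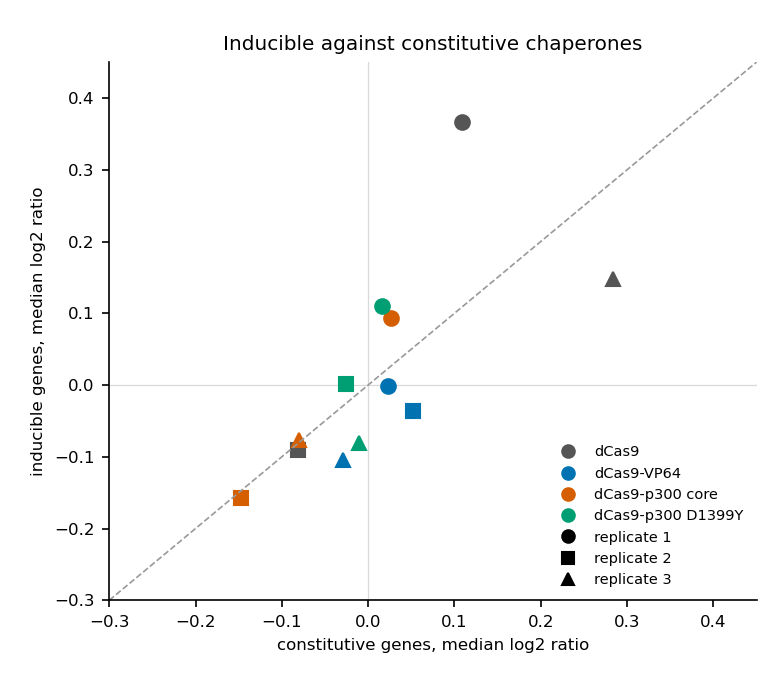
Median log2 ratio of the inducible genes (vertical axis) against that of the constitutive genes (horizontal axis), each to the mean of the 12 libraries, with group as colour and replicate number as symbol. The dashed line marks equal medians. dCas9 replicate 1 lies farthest above it (0.37 against 0.11) and dCas9 replicate 3 farthest below it (0.15 against 0.28).

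As means over the 3 libraries of a group, the inducible minus constitutive difference was 0.04 ± 0.20 (SD, n = 3) with dCas9, -0.06 ± 0.03 with dCas9-VP64, 0.02 ± 0.04 with the core and 0.02 ± 0.08 with D1399Y. The differences between group means were smaller than the SD of the dCas9 group, which does not bear on pairs of groups without dCas9. Per library, the dCas9-VP64 differences (-0.024, -0.088 and -0.076) all lay below those of the core (0.067, -0.009 and 0.004). The other pairs of groups overlapped. This separation was not tested. Summed over the genes, the inducible class took 1566 CPM in core replicate 2 and 2375 CPM in dCas9 replicate 1, its extremes, and the constitutive class ran from 5191 CPM in core replicate 2 to 6911 CPM in dCas9 replicate 3.

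In dCas9 replicate 1, 7 of the 12 tested inducible genes and 2 of the 30 constitutive genes had their highest level, and 8.9% of all genes did. In dCas9 replicate 3, 2 of 12 inducible and 20 of 30 constitutive genes had their highest level, beside 32.9% of all genes. D1399Y replicate 2 was highest for 3 genes of the set (21% of all genes), dCas9-VP64 replicate 2 for 4 (5.92%), core replicate 1 for 2 (4.21%), dCas9-VP64 replicate 1 for 1 (4.15%) and D1399Y replicate 1 for 1 (2.78%). No gene of the set was highest in dCas9 replicate 2 (3.23%), core replicate 2 (3.58%), core replicate 3 (6.91%), dCas9-VP64 replicate 3 (3.65%) or D1399Y replicate 3 (2.72%). The 7 inducible genes of dCas9 replicate 1 were HSPA1A, HSPA1B, DNAJB1, BAG3, HSPH1, HSPA4L and DNAJA1. The TRiC median ratio was 0.39 and the HSP90 median ratio 0.36 in dCas9 replicate 3, beside 0.16 and 0.19 in dCas9 replicate 1.

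**Figure D3:**
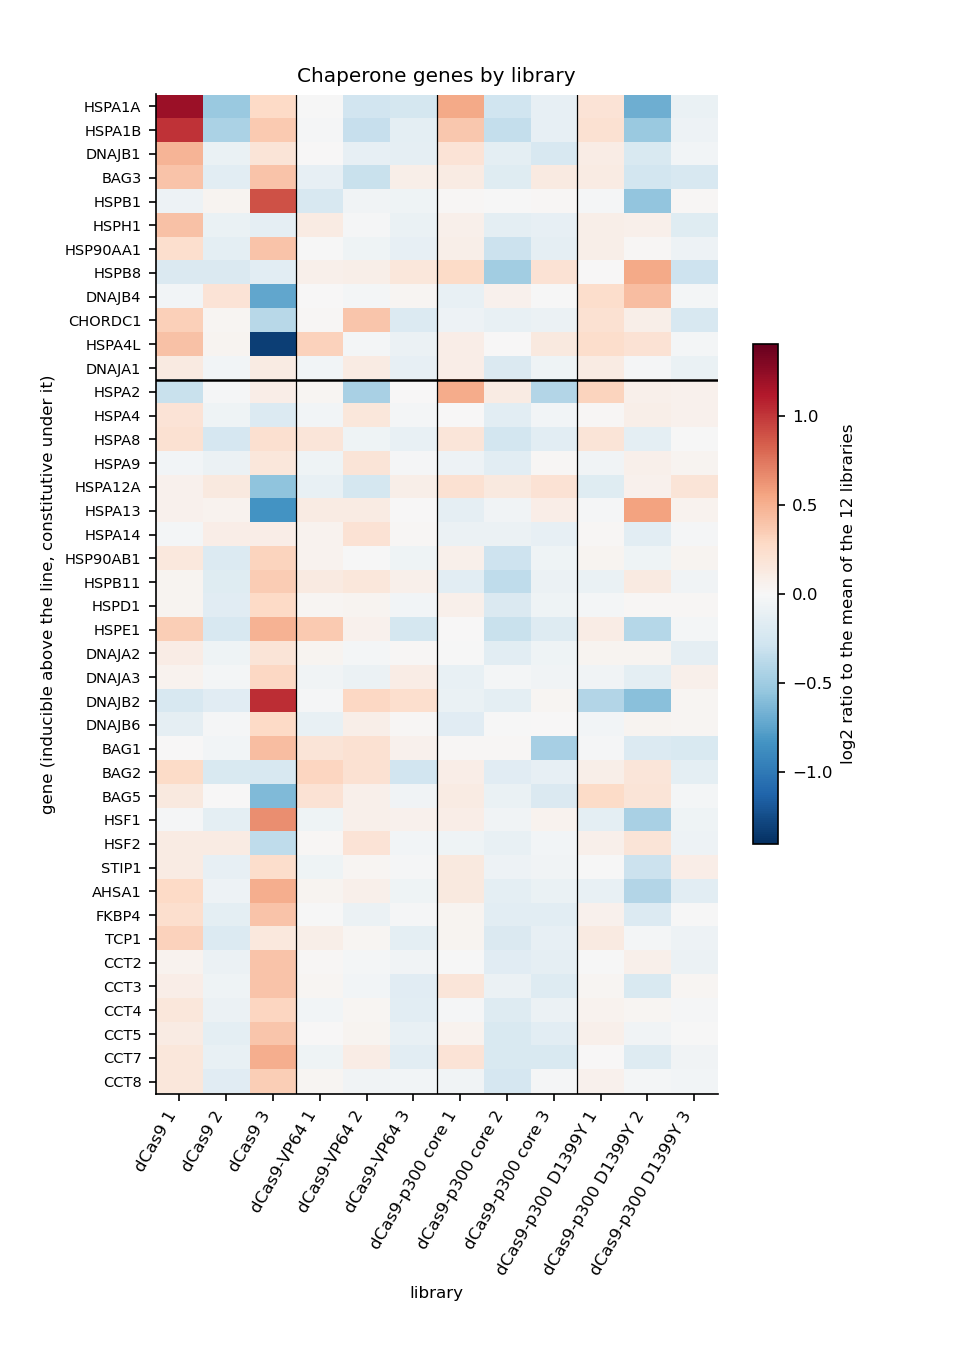
Log2 ratio of each of the 42 tested genes (rows, inducible above the line) to its mean over the 12 libraries (columns, by group), red for higher and blue for lower. HSPA1A reaches 1.202 in dCas9 replicate 1, and in dCas9 replicate 3 most constitutive rows are red while HSPA4L stands at -1.32.

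The pattern of dCas9 replicate 3 moved with transcript length and GC content. Across the 42 genes, Spearman's rho between the log2 ratio in that library and length was -0.50 and with GC content 0.67, and over 13688 genes it was -0.61 and 0.53. The genes low there included HSPA4L (10790 bases, 38.1% GC), at -1.32, and DNAJB4 (33.1% GC), at -0.73, and those high there included DNAJB2 (61.6% GC), at 1.04, and HSPB1 (909 bases, 64.5% GC), at 0.89. D1399Y replicate 2 had the opposite signs, with rho of 0.43 for length and -0.73 for GC content across the 42 genes and 0.40 and -0.67 over all. In dCas9 replicate 1 the values over all genes were -0.002 and -0.04, and across the 42 genes 0.15 and -0.10. These correlations are across genes of 1 library, which share its depth and preparation, and their part in the results was not tested.

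HSPA1A and its partners also followed the replicate number, for which the main fit has no term. Replicate 1 was the highest of the 3 libraries within each of the 4 groups for HSPA1A, HSPA1B, DNAJB1 and HSPH1 among the inducible genes and for BAG5 and TCP1 among the constitutive genes, as it was for 3.96% of all genes. Replicate 2 was the lowest within each group for HSPA1A, HSPA1B and BAG3, as it was for 3.11% of all genes. Other constant placings were rarer in the set: DNAJB6 was lowest in replicate 1 of every group (4.57% of all genes) and BAG5 lowest in replicate 3 (4% of all genes), while 0 genes of the set were highest in replicate 2 or in replicate 3 of every group (4.17% and 4.21% of all genes). The titles of replicate 2 carry "ALL IL1RN" in all 4 groups, words that the titles of replicates 1 and 3 lack. The labels do not say what this wording means or what libraries of 1 number share.

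Spread within groups differed widely among the genes. The pooled within-group SD of log2 CPM was 0.53 for HSPA1A, above 98.4% of the 500 genes nearest to it in mean count, 0.48 for HSPA4L (above 97%), 0.46 for HSPA1B (93.8%) and 0.40 for DNAJB2 (87%). At the other end stood HSPA14 at 0.08 (above 1.2%) and DNAJA2 at 0.09 (5.2%), beside a median of 0.26 over all genes. The genes that vary most here are a mixture of classes: 3 are inducible, and DNAJB2 is a constitutive J protein.

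With dCas9-VP64 against dCas9, the contrast for the added activation domain, none of the 42 genes passed an adjusted p of 0.05. The targeted gene IL1RN did not pass it either, at a fold of 3.70 (95% interval 2.49 to 5.51, adjusted p = 0.0873, edgeR). A lack of calls here is therefore not evidence of a lack of difference. HSPA1B was lower on average with dCas9-VP64, at 102 ± 11.1 CPM (SD, n = 3) against 153 ± 73.5, and HSPA1A was at 51.5 ± 5.31 against 81.6 ± 47.7. Their log2 fold changes were -0.58 ± 0.30 (SE) and -0.66 ± 0.35, a fold of 0.669 (95% interval 0.428 to 1.04) and of 0.633 (0.375 to 1.07), and BAG3 gave -0.34 ± 0.18. Each had an adjusted p of 0.925 (edgeR quasi-likelihood test, Benjamini-Hochberg over 14621 genes). By edgeR 0 of 42 genes passed an adjusted p of 0.05 (0% of all genes did), DESeq2 and limma-voom also passed 0, and 0 had an unadjusted p under 0.05 (3.08% of all genes). Both moved with single dCas9 libraries: without dCas9 replicate 1, HSPA1A stood at -0.09 and HSPA1B at -0.16, and without dCas9 replicate 2 at -0.98 and -0.87 (adjusted p = 0.365 and 0.359, edgeR). In the latter fit 10 of 42 genes had an unadjusted p under 0.05, beside 12.8% of all genes.

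HSPB8 was the only gene of the set whose dCas9-VP64 and dCas9 libraries did not overlap, higher with dCas9-VP64 (log2 0.31 ± 0.27, adjusted p = 0.925, edgeR), as for 3.04% of all genes, and 0 were lower without overlap (2.87%). The median log2 fold change was -0.17 for the inducible genes, -0.09 for the constitutive genes and -0.01 for all genes, and 13 of 42 genes lay above 0 (31%, beside 49% of all genes). TRiC had 0 of its 7 subunit genes in the set above 0. They lay between -0.24 and -0.11, but between -0.10 and -0.01 without dCas9 replicate 3. BAG had 3 of 4 genes above 0. Without dCas9 replicate 1 the inducible median was -0.07, and without dCas9 replicate 3 the constitutive median was 0.00.

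The core against dCas9, the comparison for the added acetyltransferase core, likewise gave no call in the set. HSP90AA1 had the smallest p, at 862 ± 116 CPM against 1054 ± 193 with dCas9 (log2 -0.29 ± 0.14), followed by the TRiC gene CCT4 (-0.23 ± 0.12) and the immunophilin gene FKBP4 (-0.27 ± 0.14), each with an adjusted p of 0.87 (edgeR). HSPA1A and HSPA1B stood at -0.41 ± 0.35 and -0.42 ± 0.30, without dCas9 replicate 1 at 0.16 and 0.00, and without dCas9 replicate 2 at -0.73 and -0.70 (adjusted p = 0.339 and 0.32, edgeR). In the fit without dCas9 replicate 2, 14 of 42 genes had an unadjusted p under 0.05, beside 13.9% of all genes. With all libraries, by edgeR 0 of 42 passed (0.0137% of all genes did, namely IL1RN and EP300, whose reads can include the plasmid's), DESeq2 and limma-voom passed 0 of the set, and 0 had an unadjusted p under 0.05 (3.15% of all genes). Without dCas9 replicate 3, HSP90AA1, CCT4 and FKBP4 stood at -0.17, -0.14 and -0.14.

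Groups did not overlap for HSPA12A, higher with the core (3.68% of all genes), and for DNAJA3 and HSPA14, lower (3.21%). The median was -0.18 for the inducible genes and -0.17 for the constitutive genes beside 0.00 for all genes, and 7 of 42 genes lay above 0 (16.7%, beside 50.6% of all genes). All 7 TRiC genes of the set lay between -0.28 and -0.18, and both HSP90 genes and all 4 HSP90 partners lay below 0. Without dCas9 replicate 3 the TRiC genes lay between -0.17 and -0.05, and 1 of the 4 HSP90 partners lay above 0. Without dCas9 replicate 1 the inducible median was 0.03 and the constitutive median -0.19, and without dCas9 replicate 3 they were -0.16 and -0.10.

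With D1399Y against dCas9, which shows the core without its activity, AHSA1 had the smallest p of the set. It stood at 63.2, 49.4 and 74.3 CPM with dCas9 and at 48.4, 39.2 and 46.9 with D1399Y, without overlap (log2 -0.47 ± 0.16, adjusted p = 0.618, edgeR), and DNAJB2 (-0.62 ± 0.29) and HSF1 (-0.41 ± 0.19) followed at the same adjusted p. Without dCas9 replicate 3, DNAJB2 stood at -0.11 and HSF1 at -0.13. By edgeR 0 of 42 passed (0.00684% of all genes did), DESeq2 and limma-voom passed 0, and 1, AHSA1, had an unadjusted p under 0.05 (6.12% of all genes). AHSA1 was also the only gene lower without overlap (3.88% of all genes), and 0 were higher without overlap (3.26%).

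HSPA1A and HSPA1B stood at -0.64 ± 0.35 and -0.52 ± 0.30 with D1399Y, without dCas9 replicate 1 at -0.07 and -0.10, and without dCas9 replicate 2 at -0.97 and -0.81 (adjusted p = 0.195 for both, edgeR). In the fit without dCas9 replicate 2, 14 of 42 genes had an unadjusted p under 0.05, beside 20.7% of all genes. With all libraries, the median was -0.13 for the inducible genes, -0.10 for the constitutive genes and -0.01 for all genes, with 12 of 42 genes above 0 (28.6%, beside 49.2%). The 7 TRiC genes of the set lay between -0.28 and -0.10. Without dCas9 replicate 3 they lay between -0.10 and 0.01, with 2 of 7 above 0. Without dCas9 replicate 1 the inducible median was -0.05, and without dCas9 replicate 3 the constitutive median was -0.03. These 3 comparisons share the dCas9 libraries, so their likeness is not independent. dCas9 replicate 2 was also taken alone as the dCas9 group, an alternative chosen after seeing the data. The set's median was then 0.09 with dCas9-VP64, 0.04 with the core and 0.09 with D1399Y. Of the dCas9 libraries, replicate 2 had the lowest inducible and constitutive medians (-0.09 and -0.08), so this upward move followed from the choice.

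**Figure D4:**
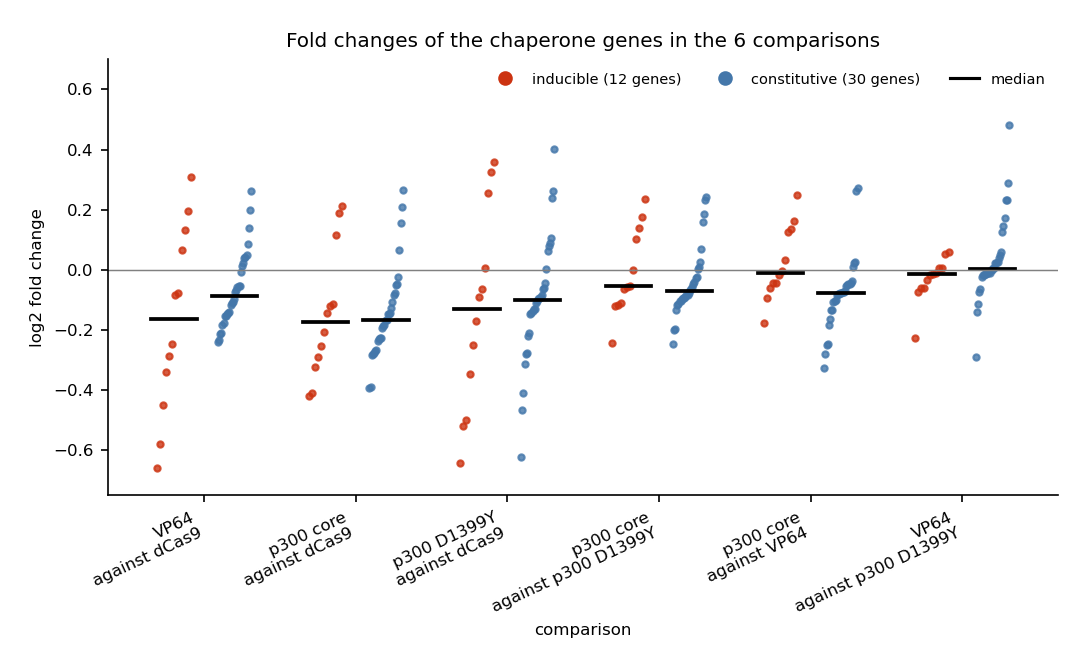
Log2 fold change (vertical axis) of each inducible (red) and constitutive (blue) gene in the 6 comparisons (horizontal axis), with the median of each class as a bar. The medians lie below 0 in the 3 comparisons against dCas9, from -0.18 to -0.09, and run from -0.08 to 0.00 in the others.

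The 3 comparisons between groups other than dCas9 gave class medians closer to 0, in part only slightly. The constitutive median between the core and dCas9-VP64 was -0.078, beside -0.086 for dCas9-VP64 against dCas9. The SE in these 3 comparisons came from the fit of all 12 libraries, so the spread of the dCas9 libraries entered them. With the compared groups alone, the SE of HSPA1A was 0.225, 0.174 and 0.191 in the order below. Between the core and D1399Y, which differ by the activity of p300, HSF1 (0.24 ± 0.19), DNAJB4 (-0.25 ± 0.20) and HSPA13 (-0.25 ± 0.21) had the smallest p, each with an adjusted p of 1 (edgeR). Of 42 genes 0 passed by edgeR (0.00684% of all genes did), by DESeq2 or by limma-voom, and 0 had an unadjusted p under 0.05 (1.82% of all genes). HSF1 was higher without overlap (5.42% of all genes) and CCT4 and HSPA4 lower (4.43%). HSPA1A stood at 0.23 ± 0.35 and HSPA1B at 0.10 ± 0.30, a fold of 1.18 (95% interval 0.696 to 1.99) and 1.07 (0.686 to 1.68). In this fit of all 12 libraries the interval leaves room for a change of nearly 2-fold in HSPA1A. The direction of the pair turned with single libraries, at -0.05 and -0.13 without core replicate 1 and at 0.03 and -0.07 without D1399Y replicate 2. Without D1399Y replicate 1 the pair stood at 0.45 and 0.29. The medians were -0.06 for the inducible and -0.07 for the constitutive genes, with 12 of 42 genes above 0 (28.6%, beside 50.4% of all genes). Without D1399Y replicate 2, HSF1 stood at 0.13, DNAJB4 at -0.13 and HSPA13 at -0.04.

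Between the core and dCas9-VP64, HSPB11 (-0.33 ± 0.19), BAG1 (-0.28 ± 0.17) and HSPA14 (-0.19 ± 0.12) had the smallest p, again with an adjusted p of 1 (edgeR). Of 42 genes 0 passed by edgeR (0.00684% of all genes did), by DESeq2 or by limma-voom, and 0 had an unadjusted p under 0.05 (2.05% of all genes). HSPA12A and HSPB1 were higher without overlap (5.5% of all genes), and BAG1, HSF2, HSPA14 and HSPB11 lower (4.75%). HSPA1A stood at 0.25 ± 0.35 and HSPA1B at 0.16 ± 0.30, and without core replicate 1 at -0.03 and -0.07. The inducible median was -0.01 and the constitutive median -0.08. Of 42 genes 10 lay above 0 (23.8%, beside 49.3% of all genes), namely 5 of 12 inducible and 5 of 30 constitutive genes. Without core replicate 3, BAG1 stood at -0.13.

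Between dCas9-VP64 and D1399Y, BAG1 (0.29 ± 0.17), DNAJB2 (0.48 ± 0.29) and AHSA1 (0.23 ± 0.16) had the smallest p, with an adjusted p of 1 (edgeR). Of 42 genes 0 passed by edgeR (0% of all genes did), by DESeq2 or by limma-voom, and 0 had an unadjusted p under 0.05 (0.622% of all genes). AHSA1, BAG1 and HSPA14 were higher without overlap (3.14% of all genes) and HSPA2 lower (2.82%). Above 0 lay 19 of 42 genes (45.2%, beside 48% of all genes). HSPA1A and HSPA1B stood at -0.01 ± 0.36 and -0.06 ± 0.30, and the class medians were -0.02 and 0.00. Without D1399Y replicate 2 the pair stood at -0.22 and -0.23, and without D1399Y replicate 1 at 0.20 and 0.13. Without D1399Y replicate 2, AHSA1 stood at 0.14.

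A further list of 38 chaperone genes, among them prefoldin subunits, the endoplasmic reticulum chaperones HSPA5 and HSP90B1 and other HSP70 and HSP90 partners, showed the same absence of calls. HSF4 had too few reads. Of the 37 tested, 0 passed by edgeR in any of the 6 comparisons, and 0, 1, 3, 0, 0 and 0 had an unadjusted p under 0.05 in the order above, beside 3.08%, 3.15%, 6.12%, 1.82%, 2.05% and 0.622% of all genes. DNAJC2, a ribosome-bound J protein, had the smallest p, with D1399Y against dCas9 (log2 -0.42 ± 0.16, adjusted p = 0.618, edgeR), and STUB1, the ubiquitin ligase CHIP (-0.49 ± 0.23), and HSPBP1, an HSP70 release factor (-0.58 ± 0.27), followed there. FKBP5, an HSP90 immunophilin, stood at 0.38 ± 0.17 with the core against dCas9 (adjusted p = 0.87, edgeR). Without dCas9 replicate 3, DNAJC2, STUB1 and HSPBP1 stood at -0.23, -0.30 and -0.18 and FKBP5 at 0.21 in these comparisons. STUB1 and HSPBP1, like HSF1 and DNAJB2, were highest in dCas9 replicate 3, at 63.3 and 82.7 CPM, and lowest in D1399Y replicate 2, at 24.4 and 26.7 CPM. The list's median was -0.13, -0.17 and -0.14 in the 3 comparisons against dCas9, with 5, 7 and 9 of 37 genes above 0, beside 49%, 50.6% and 49.2% of all genes. Without dCas9 replicate 3 the medians were -0.04, -0.05 and -0.03, with 15, 11 and 15 of 37 genes above 0. The TRiC subunit gene CCT6A belonged to this list and not to the set. With all libraries it stood at -0.133, -0.175 and -0.062 with dCas9-VP64, the core and D1399Y against dCas9.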

How the data were processed

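RNA prepared with an mRNA kit was sequenced from 12 HEK293T libraries. The authors deposited raw read counts, whole numbers for 40709 RefSeq transcripts per library. Per the submitters' processing notes, the build was hg19 and the tools DESeq2 1.6.2, R 3.1.2, SAMtools, Bowtie2 and CASAVA. The sources used here do not give the role of each tool, the strand setting, the rule for shared reads or the handling of duplicates.

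Transcripts were named through RefSeq and GENCODE tables of GRCh38, and counts were summed per gene. The 868 unnamed transcripts, with 1.07% of reads, kept their identifiers as features of their own. Total counts were 2442960 to 5154627. edgeR 4.0.16 (R 4.3.3) was used with TMM factors, filterByExpr (minimum count 10, minimum total 15) and a two-sided quasi-likelihood test in 1 fit of the 4 group means, with a threshold of 0.05 on p adjusted over 14621 genes. Log2 CPM used a prior count of 2. A log2 ratio per library is against the gene's mean over the 12 libraries. Promoters were taken from RefSeq (GRCh38.p14), choosing the start nearest to the counted transcript.

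All 43 genes are accounted for. Statistics are given for the 3 of smallest unadjusted p in each comparison, and for the 4 of smallest p in the further list. CCT6A of that list was added as a TRiC subunit gene. HSPA1A and HSPA1B were also followed through every comparison, and genes without overlap between groups or singled out by spread, place or leave-out values were named, choices made after their values were seen. The members, lists and tests were chosen with earlier results of these data known. The labels state only transfection in triplicate, so the p-values reflect only how these samples vary, which may be technical. None of the 12 pairs of libraries within a group agreed within sampling noise.

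Alternatives were RLE factors, DESeq2 1.42.0, limma-voom (limma 3.58.1), no filter, a block for replicate number and fits of only the compared groups. Further ones were the CV41 libraries alone (10 of 12 by the pool name in the labels), 1 transcript per gene, a narrow inducible list and leaving out each library. The CV42 libraries were core replicate 3 and D1399Y replicate 3, so this pool name occurred only with the p300 fusions. Data were simulated for core against dCas9 (14621 genes). Of 100 genes with a 2-fold change 74% were found, and of 100 with a 4-fold change 100%, with 17 false among 191 calls. The simulated counts were independent, with the same spread of a gene in all groups, and only genes above a minimum level were changed. Likeness by replicate number and libraries set apart were not simulated, so these shares need not hold for the real libraries. Python 3.11.15, pandas 2.3.3 and matplotlib 3.10.9 were used.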

Additional observations from a re-analysis of the deposited data

How the results depend on the processing

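No gene of the set passed the threshold under any alternative. With dCas9 replicate 2 alone as the dCas9 group, an alternative chosen after seeing the data in which 1 library is assumed to vary like the other groups, the medians of the set, its inducible and its constitutive genes were 0.085, 0.052 and 0.099 for dCas9-VP64, 0.037, 0.035 and 0.037 for the core and 0.092, 0.068 and 0.10 for D1399Y. There HSPA1B stood at 0.297, HSPA1A at 0.355 and BAG3 at 0.042 for dCas9-VP64, and HSP90AA1 at 0.029 and FKBP4 at 0.056 for the core. The library kept was the dCas9 library with the lowest class medians, and these genes were lowest there among the dCas9 libraries. The upward move of these values therefore followed from the choice. Leaving out each library gave an inducible median of -0.282 to 0.028 for the core against dCas9, with 0.028 without dCas9 replicate 1. The narrow inducible list moved the inducible minus constitutive difference to -0.244 in dCas9-VP64 replicate 2, -0.361 in D1399Y replicate 2 and 0.038 in dCas9 replicate 3.

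Counts over all genes past the threshold were few and moved. For dCas9-VP64 against dCas9 (0 genes) they were 1 with DESeq2, 1 with no filter and 0 to 1 on leaving out a library (1 without dCas9 replicate 3). For the core against dCas9 (2 genes) they were 4 with DESeq2, 1 with the compared groups alone, 1 with the CV41 libraries and 1 to 2 on leaving out a library (1 without dCas9 replicate 1 or any core library). For D1399Y against dCas9 (1 gene) they were 0, 0 and 0 to 1 in the last 3 settings (0 without dCas9 replicate 1 or any D1399Y library). For the core against D1399Y (1 gene) they were 4 with DESeq2 and 4 with the compared groups alone. For the core against dCas9-VP64 (1 gene) they were 5 with DESeq2, 3 with no filter, 6 with the compared groups alone, 0 with CV41 and 0 to 1 on leaving out a library (0 without dCas9-VP64 replicate 1 or 2 or any core library). For dCas9-VP64 against D1399Y (0 genes) each of DESeq2, no filter and the compared groups alone gave 2. The cause of these moves was not tested.

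Whether replicate numbers pair the libraries was checked by the correlation of deviations from group means. Of 18 same-number pairs, 14 exceeded 0.1 (range -0.176 to 0.497), and 12 of 12 libraries were closest to one of their own number. Other-number pairs ran from -0.44 to 0.239. The main fit has no term for replicate number, so this likeness is part of its replicate error. For HSPA1A with dCas9-VP64 against dCas9, the SE was 0.352 in the main fit and 0.216 with a block for replicate number. With the replicate block, 1 gene passed for dCas9-VP64 against dCas9, 1 for the core against dCas9 and 0 for D1399Y against dCas9, and 0 genes of the set passed in any comparison. With the block 4, 1 and 7 genes of the set had an unadjusted p under 0.05 in these 3 comparisons, beside 6.46%, 5.23% and 11% of all genes. HSPA1A and HSPA1B then stood at -0.53 ± 0.22 and -0.49 ± 0.18 with dCas9-VP64 (unadjusted p = 0.0303 and 0.0174, adjusted p = 0.739, edgeR), their unadjusted p for D1399Y against dCas9 was 0.0227 and 0.0224, and with dCas9-VP64 over all alternatives their adjusted p ran from 0.365 to 1 and from 0.359 to 1.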
